A study of Homo sapiens with 16 samples.

Results

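Transcript levels of 10 genes of the inflammatory cytokine and NF-kB network were measured in glioblastoma cells that received a miR-137 mimic. The genes were the secreted factors IL6, IL8, CCL2 and LIF, the NF-kB subunit genes NFKB1, NFKB2 and RELB, and NFKBIA, TNFAIP3 and BIRC3, which restrain or modulate the pathway. They were taken by symbol from a list drawn up with earlier results of these data known, so the list is not independent of the values below. All 10 were found among the 20314 genes counted in U251 libraries and the 20626 counted in U343 libraries. U251 and U343 are established human glioblastoma cell lines. Cells of either line received the miR-137 mimic or a control one at 25 nM and were collected after 48 hours. The control cells thus carried the lipid reagent and a small RNA as well, and no untransfected cells were included. RNASeq counted total RNA depleted of ribosomal RNA, and RIPSeq counted RNA that came down with a mix of antibodies to PABP, the poly(A) binding protein. Each of the 4 experiments held 2 control and 2 miR-137 libraries, 16 libraries in all.

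NF-kB dimers are kept in the cytoplasm by inhibitor proteins such as the product of NFKBIA. Receptors for TNF, interleukins and microbial RNA activate kinases that remove these inhibitors, and the released dimers enter the nucleus and switch on genes that carry kappaB motifs. Among these are cytokines that recruit or instruct immune cells, precursors of the subunits themselves, and the inhibitors that end the signal. In glioma, IL6 and LIF are known to act on tumor cells through a shared receptor subunit and STAT3, whereas CCL2 and IL8 attract myeloid cells and promote vessel growth.

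The mature miRNA that the mimic represents is shown because its seed, bases 2 to 8, directs target recognition. It is given as RefSeq lists it, at chr1:98046091-98046113 on the minus strand of GRCh38.p14, with the seed in capitals. No other mature miRNA of the table shared this seed.

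hsa-miR-137-3p: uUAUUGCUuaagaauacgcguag

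Promoter sequences were searched on both strands because these genes are described as sharing kappaB motifs. RefSeq windows of 250 bases before to 50 bases after a gene start (GRCh38.p14) were held for 7 of the 10 genes, which leaves CCL2, LIF and RELB without a window. A match to the kappaB consensus was present in 6 of the 7 genes. Counted by windows, of which some genes have several, it was present in 7 of their 10 and in 5.91% of all 35116 windows of this length. In IL8 the looser pattern GGNNNTTCC was matched, which 20.1% of all windows held and which overlaps the consensus. IL8 was also the single gene of the 7 with TGANTCA, an AP-1 type motif present in 7.71% of windows. Such matches describe letters and were not tested for binding. The stretches of 30 bases around the matches follow, 5′ to 3′ on the strand of the gene, with the matched bases in capitals.

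IL6, chr7:22727117-22727146 (+): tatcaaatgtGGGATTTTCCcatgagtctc
IL8, chr4:73740468-73740497 (+): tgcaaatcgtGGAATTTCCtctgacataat
NFKB1, chr4:102501300-102501329 (+): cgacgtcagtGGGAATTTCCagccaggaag
NFKB2, chr10:102394490-102394519 (+): gggccgagaaGGGGCTTTCCcggccctgag
NFKB2, chr10:102395674-102395703 (+): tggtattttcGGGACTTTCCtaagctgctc
NFKBIA, chr14:35404811-35404840 (-): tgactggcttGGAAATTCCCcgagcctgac
TNFAIP3, chr6:137867188-137867217 (+): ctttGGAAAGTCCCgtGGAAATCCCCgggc
BIRC3, chr11:102317275-102317304 (+): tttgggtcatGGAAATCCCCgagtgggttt

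The first matched base in the stretches of IL6, IL8, NFKBIA and TNFAIP3 lay 73, 91, 81 and 67 bases upstream of the gene start. In TNFAIP3, 2 matches lay within the same stretch. NFKB2 had matches in 2 of its 3 windows, and the stretches shown were chosen among several to give an example from each.

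Library totals ranged from 10156675 to 18224061 reads in U251 RNASeq, from 22359794 to 30731476 in U251 RIPSeq, from 37952273 to 45134766 in U343 RNASeq and from 37736206 to 45055184 in U343 RIPSeq. In 2 groups the libraries stood apart from each other. The mean chi-square per gene between the libraries of a group was 216 in the U251 RIPSeq controls and 175 in the U343 RNASeq miR-137 cells, and between 2.46 and 21.9 in the other 6 groups. The labels do not say whether the libraries of a group came from separate cultures, so p-values measure the spread between these libraries, which may be technical. All 10 glioma and astrocyte markers passed the filter on low counts, with VIM between 3359 and 9844 CPM (counts scaled to a common library total after TMM adjustment), although GFAP was low in U251 RNASeq (3.28 to 32.8 CPM) against 3186 to 4708 CPM in U343 RNASeq. SLC1A3 was at 0.133 to 1.56 CPM in U343 (6 to 61 reads), and S100B at 0.180 to 1.77 CPM in U251 (2 to 31 reads), so neither line held every marker at a high level.

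In total RNA of U251 cells, 9 of the 10 genes passed the threshold with miR-137, 8 higher and 1 lower. The rises ranged from 1.40-fold in BIRC3 to 7.54-fold in TNFAIP3, and the chemokine CCL2 was the gene that fell. Over all 13052 genes tested, 28.7% were higher and 29.0% lower by edgeR at an adjusted p under 0.05, and the median log2 fold change was 0.02, against 1.09 for the 10 genes. In these bulk libraries, a change in the number of cells that express a gene and a change per cell cannot be told apart.

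IL6, a cytokine that signals through STAT3, was at 2.94 and 3.36 CPM in the control libraries and at 7.30 and 6.47 CPM with miR-137. The log2 fold change was 1.13 (SE 0.22, edgeR adjusted p = 0.000722). IL8, a chemokine for neutrophils, went from 239 and 268 CPM to 946 and 1115 CPM (log2 fold change 2.02, SE 0.15, edgeR adjusted p = 1.84e-07). The rise of IL8 was about 4.07-fold. LIF, a cytokine of the IL6 family, was at 90.0 and 69.4 CPM in controls and at 125 and 119 CPM with miR-137 (log2 fold change 0.61, SE 0.14, edgeR adjusted p = 0.00236). CCL2, which attracts monocytes, went the other way, from 102 and 110 CPM to 50.7 and 58.1 CPM (log2 fold change -0.96, SE 0.13, edgeR adjusted p = 3.91e-05). In U251 total RNA, 3 of the secreted factors thus rose while CCL2 fell 1.95-fold.

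Of the subunit genes, NFKB2, which encodes the precursor subunit of the non-canonical pathway, was at 8.23 and 7.88 CPM in controls and 22.4 and 25.4 CPM with miR-137. Its log2 fold change was 1.57 (SE 0.16, edgeR adjusted p = 3.17e-06). RELB, the usual partner of the NFKB2 product, went from 3.64 and 2.99 CPM to 7.30 and 6.38 CPM (log2 fold change 1.04, SE 0.22, edgeR adjusted p = 0.00134). The pair of non-canonical genes therefore rose 2.97-fold and 2.06-fold. NFKB1, the precursor gene of the canonical pathway, was at 70.8 and 69.7 CPM in controls and 89.8 and 79.6 CPM with miR-137, without passing the threshold (log2 fold change 0.27, SE 0.13, edgeR adjusted p = 0.0845). It passed with upper-quartile scaling (edgeR adjusted p = 0.0136), with genes kept from a mean of 50 reads upward (edgeR adjusted p = 0.03) and without miR-137 replicate 2 (edgeR adjusted p = 0.0424).

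All 3 inhibitor and feedback genes passed. TNFAIP3, a ubiquitin-editing enzyme that ends NF-kB signals, had the highest fold change of the 10 genes, from 11.4 and 9.17 CPM to 86.3 and 68.9 CPM (log2 fold change 2.91, SE 0.17, edgeR adjusted p = 1.55e-08). NFKBIA went from 43.7 and 51.6 CPM to 116 and 102 CPM (log2 fold change 1.19, SE 0.14, edgeR adjusted p = 8.68e-06). BIRC3, a ubiquitin ligase of the inhibitor of apoptosis family, was close to the threshold at 10.1 and 14.7 CPM in controls and 18.5 and 16.3 CPM with miR-137 (log2 fold change 0.48, SE 0.19, edgeR adjusted p = 0.0415). BIRC3 lost its call in 4 of the 6 other settings, DESeq2 (adjusted p = 0.102), no filter (edgeR adjusted p = 0.185), the replicate block (edgeR adjusted p = 0.0589) and the joint fit of the line's 8 libraries (edgeR adjusted p = 0.451). It was also lost without control replicate 1 (edgeR adjusted p = 0.352) and without miR-137 replicate 1 (edgeR adjusted p = 0.123). LIF lost its call without control replicate 2 (edgeR adjusted p = 0.0703), and the joint fit ended the calls of LIF and RELB (edgeR adjusted p = 0.123 and 0.101).

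**Figure D1:**
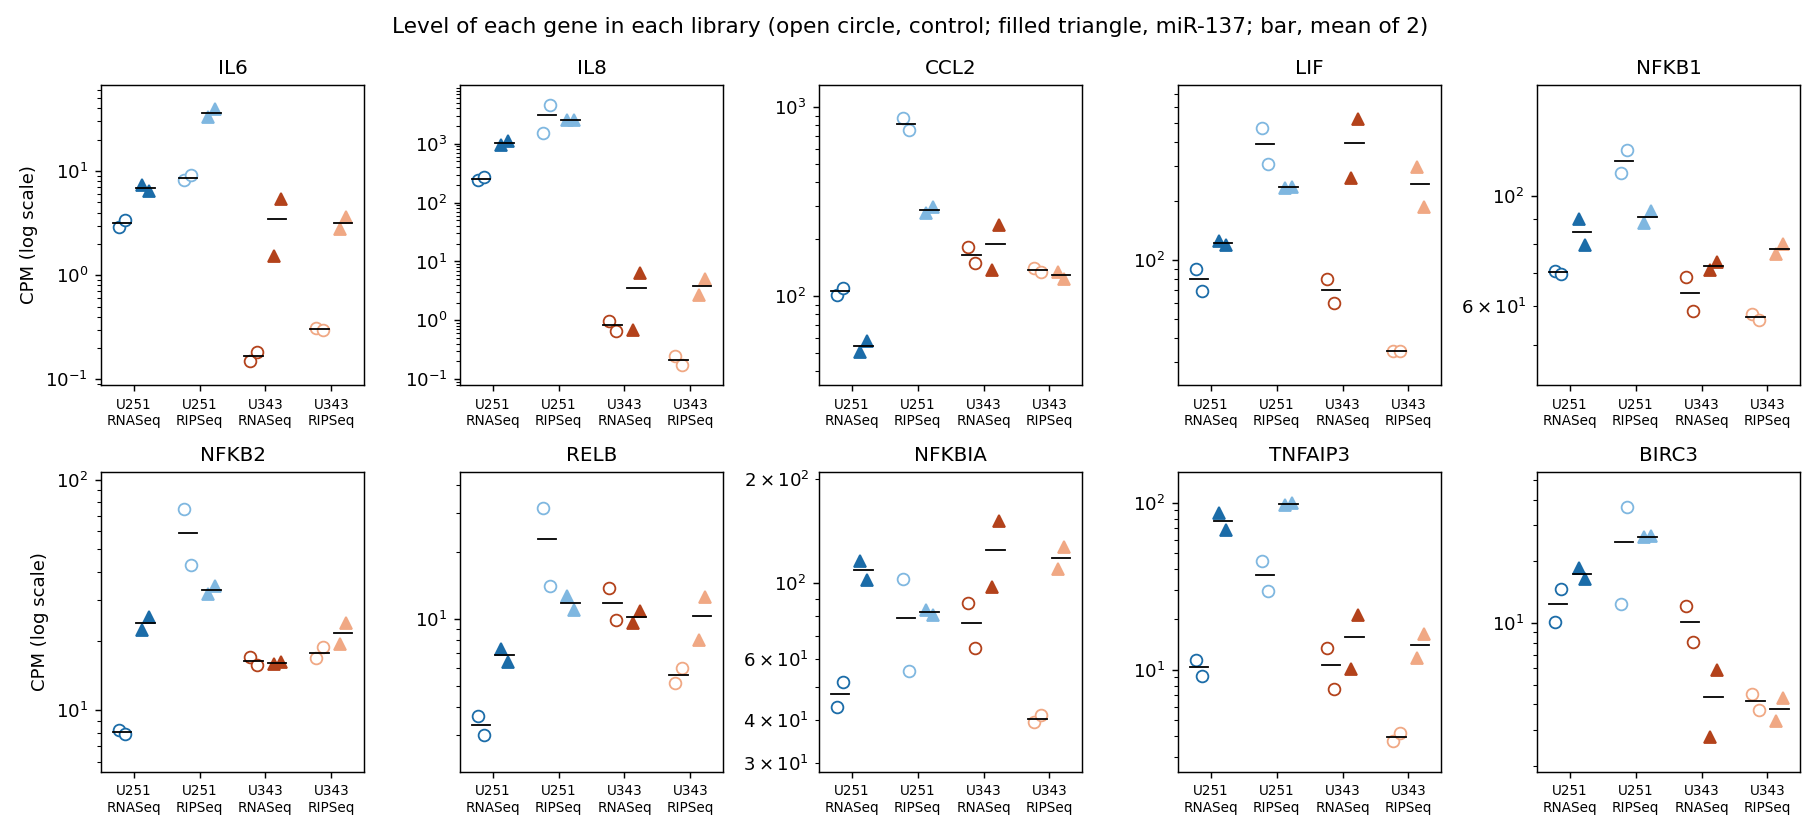
Level of each of the 10 genes in each of the 16 libraries, in CPM on a log axis, by cell line and assay, with open circles for control, filled triangles for miR-137 and bars for the mean of 2 libraries. In U251 RNASeq, TNFAIP3 triangles lie at 86.3 and 68.9 CPM above circles at 11.4 and 9.17 CPM, whereas CCL2 triangles lie below its circles.

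In PABP-bound RNA of U251 cells, none of the 10 genes passed the threshold in edgeR, where 3 had an unadjusted p under 0.05 and DESeq2 called 3. Over all 14087 genes tested, 0.944% were higher and 0.263% lower, and 20.1% had an unadjusted p under 0.05. The control libraries are those that stood apart, and several of the 10 genes differed strongly between them. IL8 was at 1533 CPM in control replicate 1 and at 4610 CPM in control replicate 2, around the 2538 and 2575 CPM with miR-137. Its log2 fold change of -0.26 (SE 0.53, edgeR adjusted p = 0.82) was -0.85 without control replicate 1 and 0.83 without control replicate 2. The direction of IL8 in this experiment thus depended on which control library was used.

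IL6, TNFAIP3 and CCL2 were the 3 genes with an unadjusted p under 0.05. IL6 was at 8.19 and 9.12 CPM in controls and at 33.0 and 39.1 CPM with miR-137 (log2 fold change 2.06, SE 0.26, edgeR adjusted p = 0.0543). CCL2 was at 874 and 756 CPM in controls and at 276 and 298 CPM with miR-137 (log2 fold change -1.51, SE 0.20, edgeR adjusted p = 0.0562). TNFAIP3 was at 44.4 and 29.4 CPM in controls and at 97.3 and 99.8 CPM with miR-137 (log2 fold change 1.42, SE 0.31, edgeR adjusted p = 0.117). These 3 were the genes that DESeq2 called, with adjusted p of 2.99e-05, 0.00186 and 0.0135 for IL6, CCL2 and TNFAIP3. Without control replicate 1, their log2 fold changes were 1.98, -1.40 and 1.74, and without control replicate 2 they were 2.23, -1.52 and 1.24. In simulated counts of this experiment with 200 genes changed 4-fold, DESeq2 made 48 false calls among 205 and edgeR 7 among 126. EdgeR recovered 59.5% of the changed genes there, so its lack of calls does not show a lack of change.

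None of the other genes of U251 RIPSeq passed. LIF was at 473 and 307 CPM in controls and 233 and 236 CPM with miR-137, NFKB2 at 74.6 and 42.8 CPM against 31.9 and 34.7 CPM, and RELB at 31.5 and 14.1 CPM against 12.7 and 10.95 CPM. Their log2 fold changes were -0.73, -0.82 and -0.94, with SE of 0.28, 0.35 and 0.45. NFKB1 was at 111 and 124 CPM in controls and 88.4 and 93.5 CPM with miR-137 (log2 fold change -0.37, SE 0.23). The log2 fold changes of these 4 genes were negative here and positive in total RNA of the same line. Here the edgeR adjusted p was 0.254 for LIF, 0.297 for NFKB2, 0.336 for RELB and 0.439 for NFKB1. NFKBIA controls, at 102 and 55.7 CPM, lay around the miR-137 libraries at 83.7 and 80.6 CPM (log2 fold change 0.06, SE 0.36). BIRC3 did the same, with controls at 12.4 and 37.1 CPM and miR-137 libraries at 26.3 and 26.5 CPM (log2 fold change 0.09, SE 0.55).

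In total RNA of U343 cells, 2 of the 10 genes passed, IL6 and LIF, both higher. Of all 15088 genes tested, 8.31% were higher and 11.7% lower. An unadjusted p under 0.05 was found for 3 of the 10 genes and for 36.8% of all genes tested. DESeq2 called 4 of the 10, adding NFKBIA (adjusted p = 0.046) and, on the lower side, BIRC3 (adjusted p = 0.0255). IL6 was close to absent from controls, with 7 reads in either library (0.152 and 0.185 CPM), and had 64 and 227 reads with miR-137 (1.52 and 5.35 CPM). The log2 fold change was 4.34 (SE 0.81, edgeR adjusted p = 0.0315). LIF went from 80.3 and 60.6 CPM to 263 and 524 CPM (log2 fold change 2.48, SE 0.39, edgeR adjusted p = 0.0217). Both calls were lost without either control library, where the edgeR adjusted p was 0.242 and 0.249 for IL6 and 0.185 and 0.224 for LIF.

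The miR-137 libraries of U343 RNASeq are the other pair that stood apart, and IL8, TNFAIP3, NFKBIA and CCL2 were wider between them than between the controls. IL8 was at 0.974 and 0.660 CPM in controls, at 0.688 CPM in miR-137 replicate 1 and at 6.29 CPM in replicate 2 (log2 fold change 2.08, SE 1.07, edgeR adjusted p = 0.234). TNFAIP3 was at 13.6 and 7.63 CPM in controls, at 10.0 CPM in replicate 1 and at 21.4 CPM in replicate 2 (log2 fold change 0.56, SE 0.47). NFKBIA was at 87.7 and 65.0 CPM in controls and at 97.6 and 151 CPM with miR-137 (log2 fold change 0.70, SE 0.27, edgeR adjusted p = 0.142). Without miR-137 replicate 1, the log2 fold changes of IL8, CCL2, NFKBIA and TNFAIP3 were 2.92, 0.53, 0.98 and 1.00. Without replicate 2, the values were -0.26 for IL8, -0.26 for CCL2, -0.09 for TNFAIP3 and 0.35 for NFKBIA. Replicate 2 was thus the library with the higher level of each of these genes.

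CCL2, at 181 and 149 CPM in U343 controls and 138 and 239 CPM with miR-137, had a log2 fold change of 0.19 (SE 0.29). None of the subunit genes passed. NFKB1 was at 68.7 and 58.7 CPM in controls and 70.9 and 73.8 CPM with miR-137, NFKB2 at 17.1 and 15.7 CPM against 15.9 and 16.1 CPM, and RELB at 13.7 and 9.90 CPM against 9.54 and 10.9 CPM. Their log2 fold changes were 0.18, -0.03 and -0.21, with SE of 0.11, 0.12 and 0.21. BIRC3 lay lower with miR-137, at 2.78 and 5.92 CPM against 12.1 and 8.05 CPM in controls, without passing in edgeR (log2 fold change -1.21, SE 0.43, adjusted p = 0.124). It passed without miR-137 replicate 2 (log2 fold change -1.86, edgeR adjusted p = 0.00511).

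In PABP-bound RNA of U343 cells, 7 of the 10 genes rose and none fell, where 28.5% of all 14866 genes tested rose and 27.8% fell. The median log2 fold change was 1.215 for the 10 genes and 0.00 for all genes tested. IL6 had 14 and 12 reads in controls (0.310 and 0.295 CPM) and 108 and 143 reads with miR-137 (2.77 and 3.65 CPM), a log2 fold change of 3.39 (SE 0.27, edgeR adjusted p = 3.88e-05). IL8 had 11 and 7 reads in controls (0.244 and 0.172 CPM) and 105 and 200 reads with miR-137 (2.69 and 5.10 CPM), a log2 fold change of 4.20 (SE 0.43, edgeR adjusted p = 0.000133). LIF went from 34.2 and 34.5 CPM to 299 and 187 CPM (log2 fold change 2.82, SE 0.21, edgeR adjusted p = 2.82e-05). These 3 factors rose 10.5-fold, 18.3-fold and 7.07-fold, IL6 and IL8 from very few reads. CCL2 did not pass, at 141 and 134 CPM in controls and 135 and 123 CPM with miR-137 (log2 fold change -0.09, SE 0.09, edgeR adjusted p = 0.407).

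Among the subunit genes, RELB went from 5.16 and 5.998 CPM to 8.04 and 12.5 CPM (log2 fold change 0.88, SE 0.21, edgeR adjusted p = 0.00907), and this call was lost without control replicate 1 (edgeR adjusted p = 0.0748). NFKB1 went from 57.8 and 56.2 CPM to 76.5 and 79.9 CPM (log2 fold change 0.46, SE 0.08, edgeR adjusted p = 0.00176). NFKB2 did not pass, at 16.9 and 18.8 CPM in controls and 19.4 and 24.0 CPM with miR-137 (log2 fold change 0.28, SE 0.13, edgeR adjusted p = 0.0909), but passed without miR-137 replicate 1 (edgeR adjusted p = 0.0279) and with the replicate number as a block (edgeR adjusted p = 0.00753). Of the inhibitors, NFKBIA went from 39.4 and 41.4 CPM to 110 and 127 CPM (log2 fold change 1.55, SE 0.10, edgeR adjusted p = 1.44e-05), and TNFAIP3 from 3.75 and 4.15 CPM to 11.7 and 16.2 CPM (log2 fold change 1.82, SE 0.18, edgeR adjusted p = 0.000116). BIRC3 overlapped between groups, at 4.52 and 3.76 CPM against 3.30 and 4.31 CPM.

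**Figure D2:**
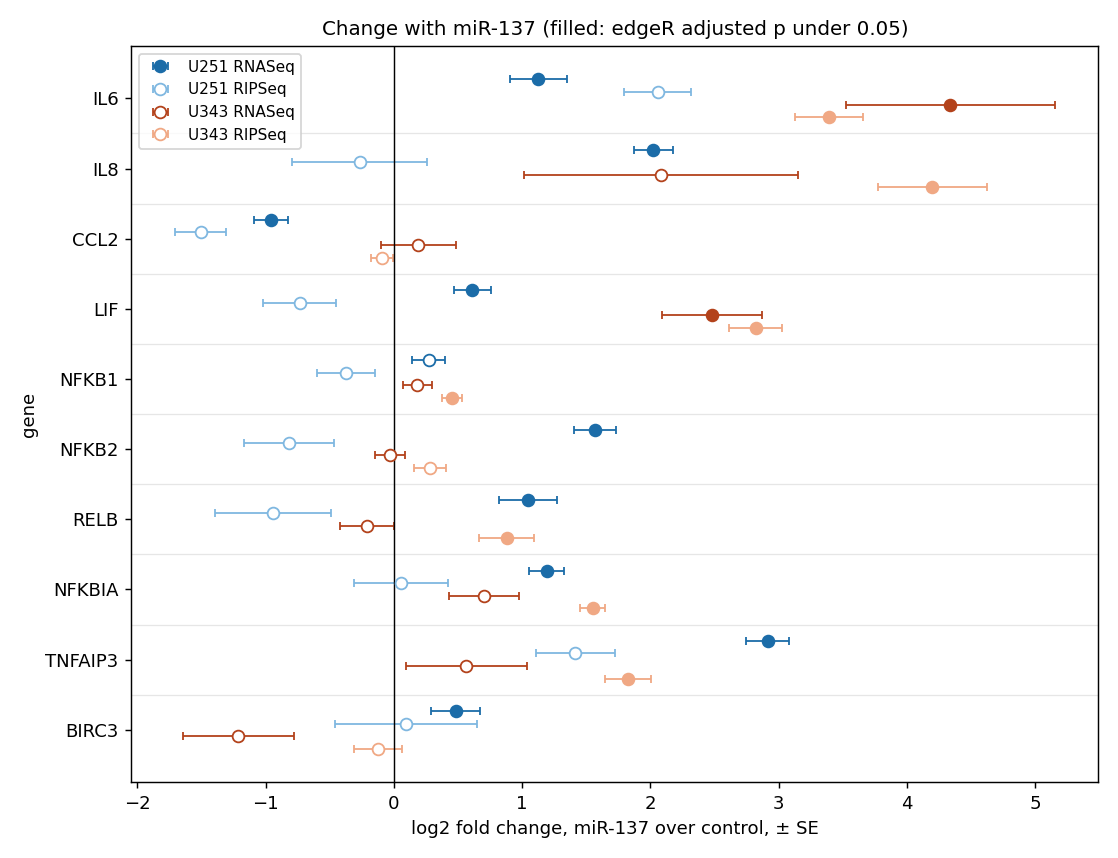
Log2 fold change of each gene, miR-137 over control, with bars of ± SE, in the 4 experiments (filled points, edgeR adjusted p under 0.05). IL6 and TNFAIP3 lie to the right of 0 in all 4, CCL2 lies to the left in U251 at -0.96 and -1.51, and the U343 RNASeq bars of IL6, IL8 and TNFAIP3 are wide.

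**Figure D3:**
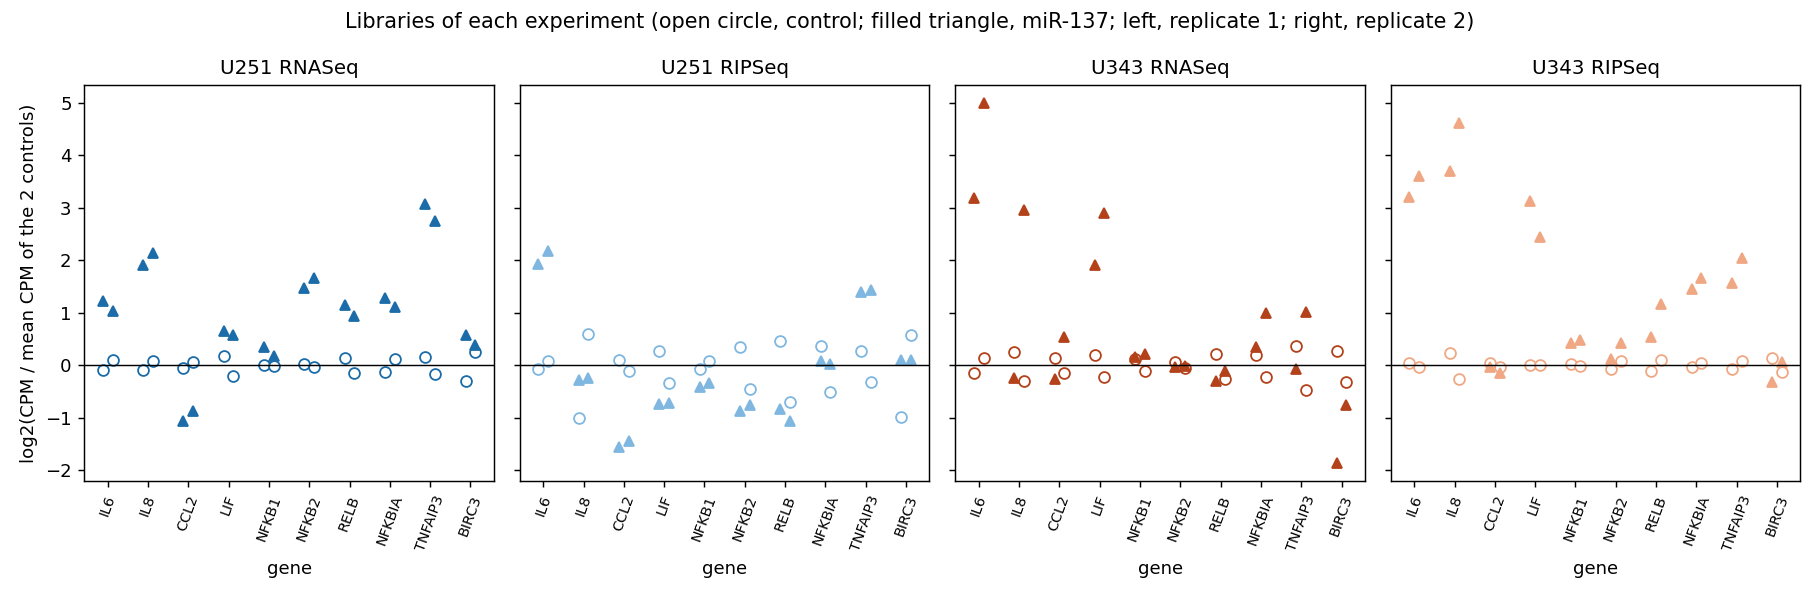
Each library as log2 of its CPM over the mean CPM of the 2 controls of its experiment (open circles, control; filled triangles, miR-137; replicate 1 left, replicate 2 right). The control circles of IL8 and BIRC3 are widely split in U251 RIPSeq, and the miR-137 triangles of IL8 are widely split in U343 RNASeq.

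Of the leukocyte markers, 3 of 3 tested rose in U251 RNASeq and 1 of 4 in U251 RIPSeq. In U343, 0 of 5 tested passed in RNASeq, and 1 of 5 rose and 1 fell in RIPSeq. The shares over all genes tested are given above for each experiment. The summed level of these markers was 10.1 to 11.3 CPM in U251 RNASeq controls and 83.3 to 91.5 CPM with miR-137. In U343 RIPSeq it was 5.73 to 6.63 CPM in controls and 93.7 to 113 CPM with miR-137. CD68, a lysosomal protein gene, made up most of the sum, between 7.59 and 86.8 CPM in U251 RNASeq. PTPRC, which marks all leukocytes, had at most 9 reads in any U251 RNASeq library and at most 6 in any U343 RIPSeq library. SPI1, TYROBP and CD3E had at most 10 reads in each RNASeq library and each U343 RIPSeq library. Not all of the markers were this low. In U251 RNASeq libraries, CSF1R had 9 to 27 reads and CD14 had 1 to 15. In U343 RNASeq libraries, LYZ had 54 to 81 reads and ITGAM had 9 to 75. Of the 11 listed leukocyte markers, 7 were at 10 reads or fewer in U251 RNASeq and 4 in U343 RIPSeq. In the experiments whose libraries stood apart, the sum was 17.8 to 23.9 CPM in controls and 93.1 to 105 CPM with miR-137 in U251 RIPSeq, and 7.23 to 7.92 CPM and 7.40 to 36.5 CPM in U343 RNASeq. The 8 endothelial markers summed to 26.9 to 28.3 CPM in U251 RNASeq controls and 25.7 to 32.2 CPM with miR-137, and to 59.6 to 67.3 CPM and 38.3 to 39.5 CPM in U343 RIPSeq. Their sums were 14.5 to 16.5 CPM in controls and 24.8 to 25.4 CPM with miR-137 in U251 RIPSeq. In U343 RNASeq they were 66.2 to 68.0 CPM and 46.8 to 56.3 CPM, where TEK alone ranged from 6.24 to 40.0 CPM. The glioma and astrocyte markers summed to 12538 to 12920 CPM in U251 RNASeq controls and 6219 to 6481 CPM with miR-137, where 2 of 10 rose and 6 fell. In U251 RIPSeq the sums were 11478 to 16070 CPM and 8728 to 8851 CPM. In U343 they were 11878 to 12739 CPM in controls and 12531 to 14791 CPM with miR-137 in RNASeq. In U343 RIPSeq they were 15498 to 16673 CPM and 15433 to 17178 CPM. The part of any of these markers in the values of the 10 genes was not tested.

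Whether the response differed between assays was asked with the interaction of transfection and assay within a line. In U251, no gene of the 10 passed in edgeR, where 0.134% of all 14210 genes did. An unadjusted p under 0.05 was found for 8 of the 10 and for 18.9% of all genes tested, and DESeq2 called 5 of the 10. The PABP-bound response was below the total response in 9 of the 10, from -0.43 in BIRC3 to -2.44 in NFKB2 on the log2 scale (NFKB2 SE 0.41, edgeR adjusted p = 0.0653). IL6, at 0.89 (SE 0.29, edgeR adjusted p = 0.184), was the exception. The median was -1.295 for the 10 genes and -0.04 for all genes tested. In U343, no gene of the 10 passed in edgeR (0.00649% of 15413 genes did), and DESeq2 called 0. An unadjusted p under 0.05 was found there for 2 of the 10 and for 17.6% of all genes tested. The values there ran from -0.95 in IL6 to 2.11 in IL8, with SE of 1.00 and 1.44. The U251 controls that stood apart enter the U251 values. When a U251 library was left out, the value ranged from -0.91 to 0.64 in BIRC3 and from -2.82 to -1.25 in IL8.

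The response of total RNA differed between the lines for 7 of the 10 genes, where 25.2% of all 15550 genes tested passed in either direction. The values are the U343 response minus the U251 response, on the log2 scale. IL6 (3.19, SE 0.83, edgeR adjusted p = 0.0252) and LIF (1.86, SE 0.42, edgeR adjusted p = 0.0154) rose more in U343. CCL2 (1.14, SE 0.34, edgeR adjusted p = 0.0386) fell in U251 and did not pass in U343. Lower responses in U343 were found for NFKB2 (-1.61, SE 0.20, edgeR adjusted p = 0.00176), TNFAIP3 (-2.36, SE 0.53, edgeR adjusted p = 0.0147), RELB (-1.27, SE 0.32, edgeR adjusted p = 0.0227) and BIRC3 (-1.70, SE 0.51, edgeR adjusted p = 0.0422). On the log2 scale, the secreted factors IL6 and LIF therefore had the stronger response in U343, and the non-canonical subunits and TNFAIP3 in U251. For IL6 this rests on 7 reads in each U343 control library. With miR-137, IL6 was at 1.52 and 5.35 CPM in U343 and at 7.30 and 6.47 CPM in U251. The number of genes passing was 1 to 3 when any of the U251 RNASeq libraries or either U343 control was left out. Line and library kit cannot be told apart, since U251 libraries were made with random hexamers and U343 libraries with another kit.

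In PABP-bound RNA the response differed between lines for 3 of the 10 genes, where 3.28% of all 15959 genes tested passed. These were IL8 (4.50, SE 0.83, edgeR adjusted p = 0.0367), LIF (3.62, SE 0.41, edgeR adjusted p = 0.0114) and CCL2 (1.47, SE 0.22, edgeR adjusted p = 0.0239), each with the higher value in U343. The IL8 value rests on the U251 RIPSeq controls and was 5.07 without control replicate 1 and 3.47 without control replicate 2. With the replicate number as a block the count was 1, DESeq2 called 7, and the count ranged from 0 to 10 when a library was left out.

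The lines differed already before miR-137. In control total RNA, 6 of the 10 genes differed between U343 and U251, 4 higher in U343 and 2 lower, where 44.9% of all 14787 genes tested were higher and 39.9% lower. IL8 was 293-fold lower in U343 (log2 difference -8.19, SE 0.16, edgeR adjusted p = 2.6e-09), at 0.817 ± 0.222 CPM (SD, n = 2) against 253 ± 20.5 CPM. IL6 was 17.8-fold lower (log2 difference -4.15, SE 0.32, edgeR adjusted p = 2.59e-06). The 2 factors with the highest fold changes in U343 RIPSeq were thus those with the lowest control levels in that line relative to U251. RELB (1.89, SE 0.22), NFKB2 (1.08, SE 0.14), NFKBIA (0.73, SE 0.15) and CCL2 (0.70, SE 0.11) were higher in U343. LIF, NFKB1, TNFAIP3 and BIRC3 did not pass, with log2 differences between -0.25 and 0.10, and the median over all genes tested was 0.10. After miR-137, IL8 total RNA in U343 reached 0.688 and 6.29 CPM, below each U251 library.

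Recovery with PABP was read from PABP-bound against total RNA of control cells. In U251, 7 of the 10 genes were higher in PABP-bound RNA and none lower, where 7.87% of all 13242 genes tested were higher and 6.14% lower. IL8 (3.73, SE 0.53, edgeR adjusted p = 0.0206), CCL2 (3.10, SE 0.32, edgeR adjusted p = 0.00911), NFKB2 (3.02, SE 0.42, edgeR adjusted p = 0.0194) and RELB (2.94, SE 0.50, edgeR adjusted p = 0.0242) had the highest log2 ratios. LIF (2.45), TNFAIP3 (2.00) and IL6 (1.60) passed as well, whereas NFKB1 (0.89), NFKBIA (0.89) and BIRC3 (1.13) did not. CCL2, for instance, was at 102 and 110 CPM in total and 874 and 756 CPM in PABP-bound RNA. Without either RNASeq control library the count was 2, and without the filter on low counts it was 0.

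The same comparison in U343 went the other way. There, 6 of the 10 genes were lower in PABP-bound RNA and none higher, where 24.4% of all 14878 genes tested were higher and 24.2% lower. The log2 ratio was -1.86 in IL8 (SE 0.38, edgeR adjusted p = 0.0055), -1.32 in TNFAIP3 (SE 0.26, edgeR adjusted p = 0.00461), -1.18 in BIRC3, -0.98 in RELB, -0.93 in LIF and -0.81 in NFKBIA. LIF was at 80.3 and 60.6 CPM in total and at 34.2 and 34.5 CPM in PABP-bound RNA of these controls. IL6 (0.96, SE 0.42), NFKB2 (0.23), NFKB1 (-0.05) and CCL2 (-0.16) did not pass. Leaving out any of the 4 control libraries changed the call of none of the 10 genes, in 40 values.

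The difference between the lines in PABP recovery was tested after these values had been seen. It passed for IL8, CCL2, LIF, NFKB2, RELB and TNFAIP3, 6 of the 10 genes, where 3.8% of all 15649 genes tested passed. The U343 minus U251 log2 ratio was -5.64 in IL8 (SE 0.77, edgeR adjusted p = 0.023), -3.99 in RELB (SE 0.59, edgeR adjusted p = 0.025) and -3.32 in CCL2 (SE 0.28, edgeR adjusted p = 0.0174). The median over all genes tested was -0.15. The count fell to 0 without any of the 4 RNASeq control libraries or either U343 RIPSeq control library. Again the library kit differed between the lines, and its part cannot be told apart from that of the line.

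**Figure D4:**
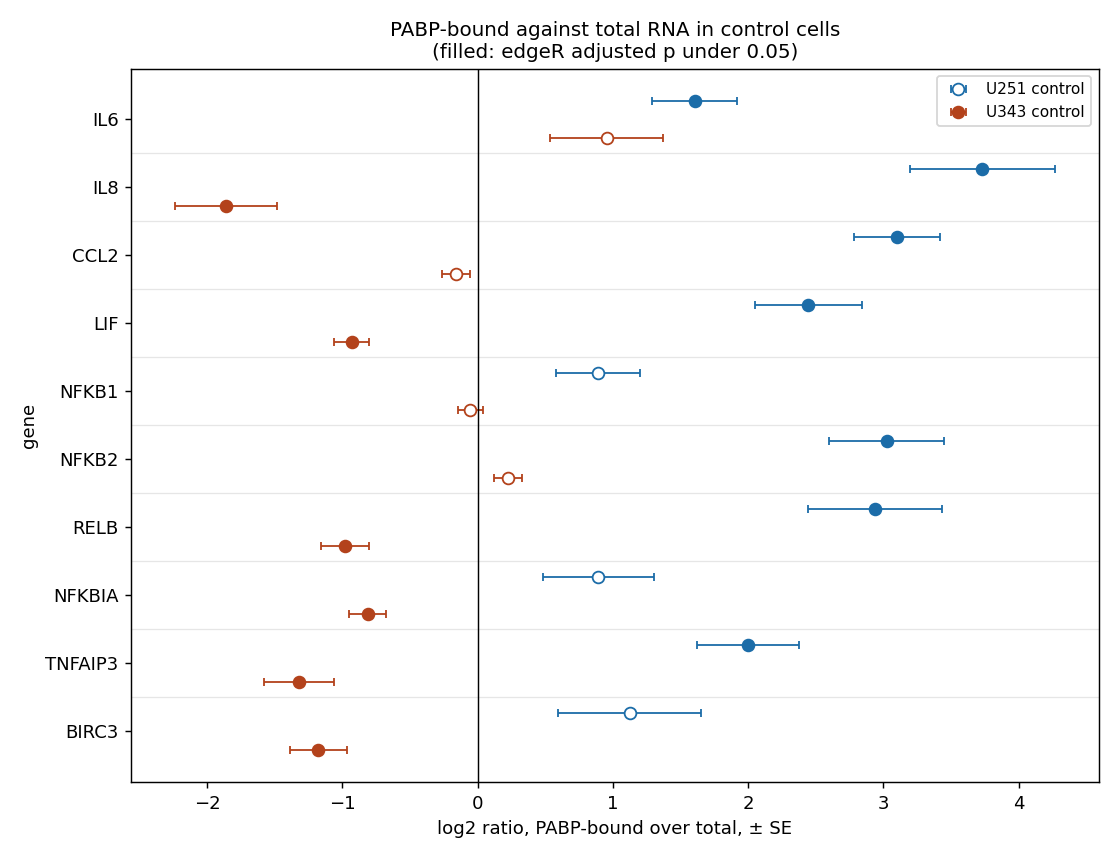
Log2 ratio of PABP-bound over total RNA in control cells for each gene, with bars of ± SE (filled points, edgeR adjusted p under 0.05). All 10 U251 points lie to the right of 0, from 0.89 to 3.73, while 8 of the 10 U343 points lie to the left, down to -1.86.

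The study's own rule pairs each control library with each miR-137 library and asks, in all 4 pairs, that Fisher's exact test give an adjusted p under 0.001 and an odds ratio above 2. It was applied as such and also mirrored for rises. In U251 RNASeq, 6 of the 10 genes met the rule for rises (IL6, IL8, NFKB2, RELB, NFKBIA and TNFAIP3) and 0 that for decreases. Of the 20314 genes, 6.14% and 2.21% did. The rule uses raw library totals, and with totals scaled by TMM factors 3 of the 10 genes met it there. In U251 RIPSeq, IL6 and TNFAIP3 met it for rises and CCL2 for decreases, where 3.47% and 1.49% of genes did. CCL2 had the higher level in the control library of each pair, with odds ratios of control over miR-137 from 2.27 to 3.20. In U343 RNASeq, IL6 and LIF met it for rises, where 1.51% of the 20626 genes did and 2.88% met that for decreases. In U343 RIPSeq, IL6, IL8, LIF, NFKBIA and TNFAIP3 met it for rises, where 4.83% rose and 3.4% fell. With raw totals, IL6 was the single gene of the 10 that met the rule for rises in all 4 experiments. Its miR-137 to control ratios ran from 2.38 in U251 RNASeq to 33.3 in U343 RNASeq. With TMM-scaled totals IL6 missed the rule in U251 RNASeq. There control replicate 2 was at 3.36 CPM and miR-137 replicate 2 at 6.47 CPM, less than 2-fold apart.

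The surrounding pathway was read from 6 lists with 105 further genes. In U251 RNASeq, 45 of the 78 tested rose and 10 fell, with a median log2 fold change of 0.59. In U343 RIPSeq, 49 of the 84 tested rose and 10 fell, with a median of 0.65. In the experiments whose libraries stood apart the numbers were lower, 3 higher and 1 lower of 86 in U251 RIPSeq and 15 higher and 4 lower of 83 in U343 RNASeq. The 4 genes of U251 RIPSeq stood in the lists of cytokines, receptors and target genes, and DESeq2 called 15 there. The shares over all genes tested are those given above for each experiment.

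Of the other cytokines and chemokines, 5 of 6 tested rose in U251 RNASeq, 1 of 10 in U251 RIPSeq, 4 of 7 in U343 RNASeq and 6 of 7 in U343 RIPSeq, and none fell. IL11, a cytokine of the IL6 family, was at 91.1 and 97.1 CPM in U251 RNASeq controls and 329 and 354 CPM with miR-137 (log2 fold change 1.86, SE 0.13, edgeR adjusted p = 1.1e-07). In U343 RNASeq it went from 1.97 and 1.42 CPM to 30.1 and 34.3 CPM (log2 fold change 4.24, SE 0.21, edgeR adjusted p = 0.00647). In U343 RIPSeq its log2 fold change was 4.57 (SE 0.24, edgeR adjusted p = 6.41e-06). IL11 thus rose in 3 of the 4 experiments, and its miR-137 libraries lay close together in U343 RNASeq, unlike those of IL8. IL1A, which activates NF-kB through the interleukin receptor, and CLCF1, another cytokine of the IL6 family, rose in the same 3 experiments, with log2 fold changes of 1.18, 1.72 and 1.86 for IL1A and 1.498, 1.72 and 1.84 for CLCF1. CXCL3 rose in U251 RNASeq (1.67) and U343 RIPSeq (1.41). It has closely similar neighbours, and the handling of reads with several matches is not given in the sources used here, so its values are uncertain.

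Of the receptors, 6 of 11 rose and 1 fell in U251 RNASeq, and 8 of 14 rose and 1 fell in U343 RIPSeq. In U251 RIPSeq 1 of 12 rose, and in U343 RNASeq 4 of 13 did. TLR3, a sensor of double-stranded RNA in endosomes, went from 3.19 and 2.57 CPM to 44.5 and 44.9 CPM in U251 RNASeq (log2 fold change 3.95, SE 0.18, edgeR adjusted p = 1.11e-09). It was also higher in PABP-bound RNA of U251 (4.63, SE 0.45, edgeR adjusted p = 0.034) and U343 (3.66, SE 0.18, edgeR adjusted p = 4.98e-06). In U343 RNASeq, TLR3 was at 3.81 and 3.35 CPM in controls, 2.56 CPM in miR-137 replicate 1 and 58.7 CPM in replicate 2, the same split as in IL8. IL1RAP, a coreceptor for IL1, rose in U251 RNASeq (0.37), U343 RNASeq (1.64) and U343 RIPSeq (1.25). TNFRSF12A, a TNF family receptor that drives non-canonical signals, rose in the same 3 (0.70, 0.51 and 0.93). LIFR, the LIF receptor, fell in U251 RNASeq (-0.82, edgeR adjusted p = 0.000249) and rose in U343 RNASeq (0.92, edgeR adjusted p = 0.019).

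Among adaptors and kinases, 14 of 25 rose and 2 fell in U251 RNASeq, 4 of 26 rose and 2 fell in U343 RNASeq, and 17 of 26 rose and 5 fell in U343 RIPSeq. MYD88, the adaptor of most toll-like receptors and of the IL1 receptor, went from 18.8 and 8.74 CPM to 55.4 and 63.1 CPM in U251 RNASeq (log2 fold change 2.11, SE 0.25, edgeR adjusted p = 9.26e-06) and was between 0.264 and 0.819 CPM in U343. IKBKE, an IKK-related kinase, rose in U251 RNASeq (0.60), U343 RNASeq (1.60) and U343 RIPSeq (1.86). IRAK1, the kinase that MYD88 recruits, went the other way from 320 and 277 CPM to 120 and 124 CPM in U251 RNASeq (-1.29, SE 0.13, edgeR adjusted p = 3.31e-06) and fell in U343 RIPSeq (-0.36, SE 0.11, edgeR adjusted p = 0.023). TAB3, an adaptor of the TAK1 kinase, fell in the same 2 experiments (-1.05 and -0.46).

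Of the other subunits and inhibitors, 6 of 12 rose and 2 fell in U251 RNASeq, and 5 of 12 rose in U343 RIPSeq. RELA, the main transactivating subunit, rose in U251 RNASeq (0.80, edgeR adjusted p = 0.00062) and U343 RIPSeq (1.04, edgeR adjusted p = 8.97e-05). NFKBIZ, a nuclear cofactor of NF-kB, rose in both as well (1.43 and 0.88), as did ZC3H12A, an RNase that degrades cytokine mRNAs (0.84 and 0.67). CYLD, a deubiquitinase that damps the pathway, fell in U251 RNASeq (-0.55, edgeR adjusted p = 0.00246) and rose in U343 RIPSeq (0.79, edgeR adjusted p = 0.00041).

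The other NF-kB target genes were mixed, with 8 of 14 higher and 3 lower in U251 RNASeq, 1 of 17 in either direction in U251 RIPSeq, 1 of 15 higher and 2 lower in U343 RNASeq, and 9 of 15 higher and 2 lower in U343 RIPSeq. PTGS2, the inducible cyclooxygenase gene, rose in U251 RNASeq (2.48) and U343 RIPSeq (3.78), and IRF1, an interferon-responsive transcription factor, rose there too (2.64 and 2.19). In U343 RNASeq, IRF1 was at 78.7 and 80.8 CPM in controls, 64.5 CPM in miR-137 replicate 1 and 405 CPM in replicate 2, again the split seen in IL8. CD83, a surface protein of activated dendritic cells and lymphocytes, fell in all 4 experiments, by 1.10, 2.39, 3.11 and 3.47 on the log2 scale in U251 RNASeq, U251 RIPSeq, U343 RNASeq and U343 RIPSeq. Its U343 RIPSeq level went from 16.6 and 14.6 CPM to 1.38 and 1.43 CPM (edgeR adjusted p = 2.75e-06). SOD2 fell in U343 RNASeq (-0.88) and U343 RIPSeq (-0.89).

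In the list of genes that carry the IL6 and LIF signal, 6 of 10 rose and 2 fell in U251 RNASeq, 2 of 10 rose in U343 RNASeq, and 4 of 10 rose and 2 fell in U343 RIPSeq. JAK2, a kinase of the receptor complex, rose in U251 RNASeq (0.99) and U343 RIPSeq (2.62), and JUNB, a transcription factor gene downstream, rose in both (1.67 and 1.67). PTPN11, a phosphatase recruited to the shared receptor subunit, went from 409 and 430 CPM to 129 and 104 CPM in U251 RNASeq (-1.85, SE 0.15, edgeR adjusted p = 2.69e-07) and fell in U343 RIPSeq (-0.87, edgeR adjusted p = 0.000308). PIAS3, an inhibitor of STAT3, rose in U343 RNASeq (0.88) and U343 RIPSeq (0.64).

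**Figure D5:**
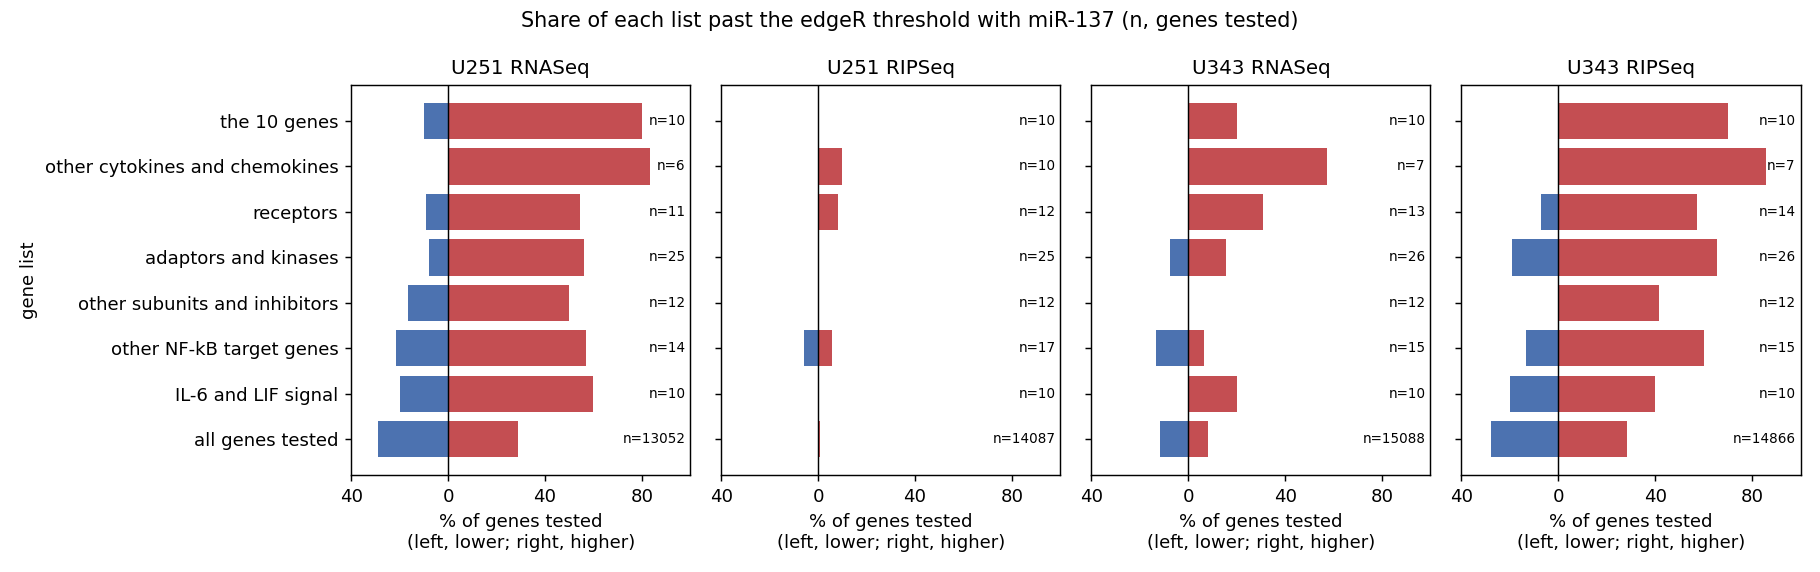
Share of the tested genes of each list that passed the edgeR threshold with miR-137 in each experiment, in % of genes tested (left, lower; right, higher; n, genes tested). Among the 10 genes, 80% were higher in U251 RNASeq and 70% in U343 RIPSeq, against 28.7% and 28.5% of all genes tested.

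The genes whose 4 log2 fold changes came closest to those of each of the 10 were searched among 12191 genes tested in all experiments, by the root mean square of the 4 differences. The distance of the nearest gene ranged from 0.05 for NFKB1 (YPEL4) to 0.65 for IL6 (ZNF804A). For IL6, ZNF804A and FAM46A (0.75) were nearest, and for IL8, SLIT1 (0.61) and SSC5D (0.63). The SE of IL6 and IL8 in U343 RNASeq, 0.81 and 1.07, were larger than these distances. A lack of close counterparts of IL6 and IL8 therefore cannot be read from them. For each of the other genes, too, the largest SE was above the distance of the nearest gene. In U251 RIPSeq, for instance, the SE was 0.55 for BIRC3 and 0.23 for NFKB1. The genes named as nearest were therefore not shown to respond alike. LIF was nearest to CNTN2 (0.34) and PLAU (0.45), and TNFAIP3 to C5orf56 (0.29) and VEGFC (0.34). CCL2 was nearest to BCAT2 (0.09) and MARCH8 (0.10), with -0.90 and -1.47 for BCAT2 in U251 RNASeq and RIPSeq. NFKB2 was nearest to CTSD (0.10) and ATXN2L (0.12), RELB to ARHGAP27 (0.26) and ZNF414 (0.27), NFKBIA to CLIP3 (0.16) and GTPBP2 (0.17), BIRC3 to NUDT7 (0.16) and KIAA1958 (0.16), and NFKB1 also to HOXC9 (0.05). PLAU is the single one of these that also stood in the lists of pathway genes. The 2 U343 controls together held 7 PLAU reads in RNASeq and 7 in RIPSeq.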

How the data were processed

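The deposited values are raw counts of reads per gene. Per the study's methods, the authors used RMAP and the build hg18, with isoforms collapsed to 1 RefSeq transcript per gene. The values are whole numbers with unequal totals. An additional U251 replicate was not analysed here. Groups came from the labels of cell line, assay and transfection. SLC35E2 stands on 2 lines of the U251 tables, and the first was used. Counts were fitted with edgeR 4.0.16 in R 4.3.3 (quasi-likelihood F test, TMM, filterByExpr), within each experiment or over both assays or lines for interactions, with Benjamini-Hochberg adjustment over all genes tested and a threshold of 0.05. All 10 genes passed the filter on low counts in each experiment. CPM used TMM-scaled totals, and SE is the log2 fold change divided by the square root of F. Reads carry no molecular identifiers, so errors at the level of reads cover counting only. Alternatives were DESeq2 1.42.0, upper-quartile scaling, other filters, a replicate block, a joint fit and each library left out. In a fit with 1 library in a group, that library is assumed to vary like the others. Fisher's exact tests used scipy 1.17.1. Scripts were tested on simulated data with 200 genes changed 4-fold. In U343 RNASeq, DESeq2 made 52 false calls among 233 there and edgeR 20 among 200. The 10 genes and all lists were chosen with earlier results of these data known. Pathway genes named were, per list, the 2 with the highest and the 2 with the lowest mean log2 fold change among those past the threshold in at least 2 experiments and with a mean of at least 50 reads in the higher group. LTB, TNF, IER3, LTA, CCR2 and AIF1, and in U251 IKBKB, were not analysed here.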

Additional observations from a re-analysis of the deposited data

Results flagged for a closer look

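A difference between the cell lines in the response to miR-137 passed its own test for several of the 10 genes. In total RNA, the U343 minus U251 log2 response was 3.19 in IL6, 1.14 in CCL2, 1.86 in LIF, -1.61 in NFKB2, -1.27 in RELB, -2.36 in TNFAIP3 and -1.70 in BIRC3. In PABP-bound RNA it was 4.50 in IL8, 1.47 in CCL2 and 3.62 in LIF.

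The recovery with PABP in control cells also differed between the lines, in a comparison chosen after the data had been seen. The U343 minus U251 log2 ratio was -5.64 in IL8, -3.32 in CCL2, -3.44 in LIF, -2.86 in NFKB2, -3.99 in RELB and -3.38 in TNFAIP3. Library kits differed between the lines, and the control libraries of U251 RIPSeq differed from each other. The part of either was not tested.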

How the results depend on the processing

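With DESeq2, 3 of the 10 genes were called in U251 RIPSeq and 4 in U343 RNASeq. It called 5 in the U251 assay interaction and 7 in the RIPSeq line interaction, and 15 pathway genes in U251 RIPSeq. The share of all genes that DESeq2 called is not given here. Without the filter, 0 genes passed in the U251 PABP comparison and 0 pathway genes in U251 RIPSeq. With at least 50 reads on average, 1 of the 10 passed in U251 RIPSeq. A joint fit of the line gave 3 in U251 RIPSeq, 33 pathway genes in U251 RNASeq and 25 in U251 RIPSeq. With library totals scaled by TMM factors, 3 genes met the study's rule in U251 RNASeq. Upper-quartile scaling moved the median of all genes in U251 RNASeq from 0.02 to 0.16.

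With a library left out, the counts of the 10 genes ranged from 0 to 10 in U251 RIPSeq (10 without either control), 0 to 6 in U343 RNASeq (0 without either control, 6 without miR-137 replicate 1), 0 to 10 in the U251 assay interaction (9 and 10 without RIPSeq control replicate 1 and 2), 0 to 5 in the U343 one (5 without RNASeq miR-137 replicate 2), 1 to 9 in the RNASeq line interaction, 0 to 10 in the RIPSeq one, 2 to 9 in the U251 PABP comparison, 0 to 9 in the difference between lines in PABP recovery, and 3 to 7 by the study's rule in U251 RIPSeq (7 without control replicate 2). Pathway counts ranged from 2 to 79 in U251 RIPSeq and from 0 to 52 in U343 RNASeq. Among values that passed the threshold with the turned sign, directions turned in IL8, from -0.85 (without control replicate 1) to 0.83 (without control replicate 2), in NFKBIA, from -0.23 to 0.56, and in BIRC3, from -0.49 to 1.18, all in U251 RIPSeq, where NFKBIA turned without control replicate 2 and BIRC3 without control replicate 1. They also turned in BIRC3 in the U251 assay interaction, from -0.91 to 0.64 (without RIPSeq control replicate 2), and in IL8 in the RNASeq line interaction, from -2.30 (without U343 miR-137 replicate 2) to 0.89. Other values that had not passed also changed sign without passing, such as IL8 (-0.26), CCL2 (-0.26) and TNFAIP3 (-0.09) in U343 RNASeq without miR-137 replicate 2. The cause was not tested. Fits with a library left out hold 1 library in a group, and the share of all genes that passed in them is not given here. Their counts show how far the calls depend on a library and are not results about the 10 genes.

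The sources used here do not say what a shared replicate number marks. The correlation of their deviations was 0.0632, -0.0592, 0.122 and 0.395 in U251 RNASeq, U251 RIPSeq, U343 RNASeq and U343 RIPSeq. With the replicate block, 2 of the 10 genes passed in U251 RIPSeq, 1 in the RIPSeq line interaction and 12 pathway genes in U251 RIPSeq, and the other counts stayed within 1.5 times. The block ended the call of BIRC3 in U251 RNASeq (edgeR adjusted p = 0.0589) and gave one to NFKB2 in U343 RIPSeq (edgeR adjusted p = 0.00753). Low counts limit IL6 and IL8 in U343, where a control library held as few as 7 reads.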
